A study of Homo sapiens with 6 samples.

Results

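The replication-dependent histone genes were examined in MB157, a line established from a human breast cancer of the triple-negative type. Members were the protein-coding genes whose symbols begin with HIST1H to HIST4H, with pseudogenes left out, matched by Ensembl identifier to GENCODE release 29. The rule found 35 genes among 57209 identifiers, and 20 histone pseudogenes were set aside. GENCODE 29 lists 70 such names, and the other 35 did not match an identifier of the deposited tables and are not analysed here. Current symbols are used below, such as H2AC11 for HIST1H2AG, H2BC11 for HIST1H2BJ and H3C12 for HIST1H3J.

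All cells were MB157-Cas9, carrying the Cas9 nuclease per the titles and kept in puromycin. The series text describes the line as stably expressing SOX9. The comparison asks what changes when SOX9, an SRY-related transcription factor, is targeted. One group received a control sgRNA (3 libraries) and the other an sgRNA named for SOX9 knockout (3 libraries), both for 4 days before sorting of the top 50% of sgRNA-expressing cells. Total RNA was sequenced with a stranded low-input kit. The labels call the replicates technical, so p-values measure only the spread between these libraries.

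Replication-dependent histone genes supply the H1 linker and the H2A, H2B, H3 and H4 core proteins that package new DNA in S phase. Most of their mRNAs end in a short stem-loop bound by SLBP instead of a poly(A) tail. They lie in clusters, and many H2A and H2B genes start back to back on opposite strands with their promoters between them.

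Libraries held 776125 to 1018854 counts, with 18326 to 18818 genes detected in control libraries and 20207 to 21082 with the SOX9 sgRNA. SOX9 itself had 37 to 60 raw counts per library and differed by -0.22 on the log2 scale (SE 0.26), with an adjusted p of 0.7 by edgeR, so its transcript level did not check the labels. Some abundant genes had low counts beside a high count on the other strand. The ferritin gene FTH1 held 216 to 344 counts, and BEST1, on the other strand over 1267 bp of exon, held 8823 to 13164. GAPDH, a glycolysis gene, held 66 to 126 counts. The counts were made with strand setting 1, and whether that setting matches the kit was not tested. Whether a count named for a histone gene measures that gene's mRNA was therefore not tested either, and levels below are levels of these counts. The epithelial keratin KRT8 had 371 to 558 counts. Of 7 tested genes of the epithelial line list, 4 were called lower by edgeR (VIM, CD44, KRT7 and KRT19), and of the luminal receptor list 0 of 1. In counts scaled to the library total (plain CPM), the fibroblast list summed to 2.4 to 5.1 in control libraries and 3.9 to 10.8 with the SOX9 sgRNA, with COL3A1 and LUM at 0. Of the endothelial markers with a match, VWF and CDH5 were at 0. Of the immune markers, CD3E and LYZ were at 0, while CD68 had 18, 11 and 21 raw counts in control libraries and 31, 32 and 36 with the SOX9 sgRNA, without overlap (log2 difference 0.74, SE 0.34, adjusted p by edgeR 0.19). The part of these differences in the histone values was not tested.

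Among the histone genes, H3C12, H2AC11 and H2BC11 were called lower with the SOX9 sgRNA, each by less than 2-fold, and none was called higher. Of the 35 genes, 20 had enough counts to be tested and 15 did not. The adjusted threshold of 0.05 was passed by 3 in the lower direction, where 6.02% of all 7959 tested genes were called lower. It was passed by 0 in the higher direction, where 2.99% of all genes were called. At an unadjusted p below 0.05, edgeR gave 4 of 20 histone genes lower and 0 higher, beside 20.5% of all tested genes in either direction. At an adjusted p below 0.05, the DESeq2 Wald test called 2 histone genes lower and 0 higher. Over all 7959 tested genes it called 343 lower and 130 higher. The median log2 fold change of the 20 tested genes was -0.31, or -0.20 without H3C4 and H3C12, beside 0.02 over all tested genes. Of these 20, 13 were below 0, against 48.4% of all tested genes. In bulk RNA, fewer cells in S phase and less histone RNA per cell cannot be told apart.

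Scaling bears on these values. When library totals replaced the TMM factors, the median of all genes moved by 0.17 to 0.19 and that of the histone genes to -0.14, with 11 of 20 below 0. Under that scaling 1 histone gene, H3C12, was called lower.

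**Figure D1:**
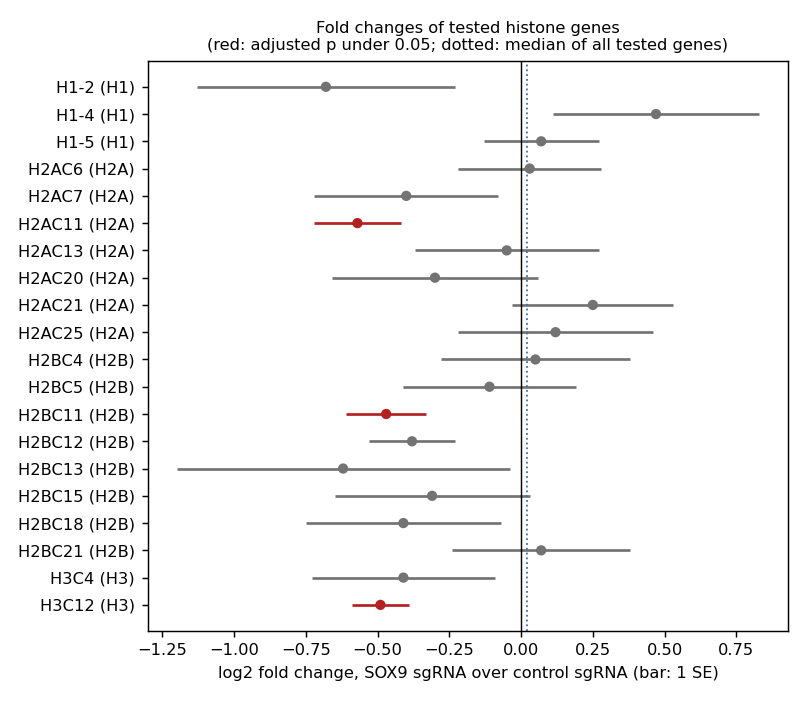
Log2 fold change (x axis, SOX9 sgRNA over control sgRNA) of each of the 20 tested histone genes (rows, histone type in brackets), with bars of 1 SE. The 3 genes past the adjusted threshold are in red at -0.49, -0.57 and -0.47, and the dotted line at 0.02 is the median of all tested genes.

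By histone type, most counts of the 35 genes carried the names of H2B, H3 and H2A genes. The 10 H2B genes, whose protein pairs with H2A in the nucleosome, held 36.3% of the 8297 counts over all libraries. The 6 H3 genes held 29% and the 9 H2A genes 24.4%. Without H3C4 and H3C12, whose counts nearly equal those of same-strand neighbours, the other H3 genes held 0.591%. The 6 H1 genes, which encode the linker histones, held 9.44%, and the 4 H4 genes 0.976%. H3C12, H2BC11, H2BC12 and H2AC11 alone held 61.7%.

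Summed over all 35 genes, plain CPM values were 1715.8, 1634.4 and 1767.4 in control libraries 1 to 3. They were 1600.5, 1382.5 and 1605.7 in SOX9 sgRNA libraries 1 to 3. The groups did not overlap, at 1706 ± 67.1 against 1530 ± 127 (SD, n = 3 each). Without H3C4 and H3C12, which share exons with neighbours on the same strand, the sums were 1195 ± 57.2 against 1121 ± 124 (SD, n = 3 each), and the groups overlapped. With TMM factors these same sums were 1347, 1271.1 and 1397.5 against 1214, 989 and 1159.4, and the groups did not overlap. H1 sums were 141 ± 26.1 against 164.8 ± 8.75 and H2A sums 401.7 ± 2.01 against 380.5 ± 71.1 (SD, n = 3 each). H2B sums were 624.3 ± 54.4 against 553.4 ± 71.6. The groups overlapped for H1, H2A, H2B and H4 on this scale. With TMM factors those of H2B did not overlap, at 699.5 ± 60 against 553.2 ± 70.3 (SD, n = 3 each).

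**Figure D2:**
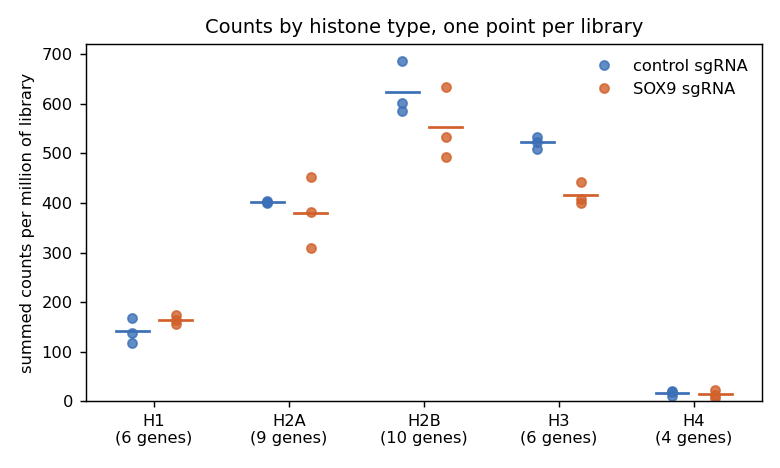
Summed plain CPM (y axis) for each histone type (x axis, with the number of genes), 1 point per library and a bar at the mean, for control sgRNA (blue) and SOX9 sgRNA (orange). The H3 points do not overlap, at 522 ± 12.2 against 416.7 ± 22 (SD, n = 3 each), and nearly all of them are counts of H3C12 and H3C4.

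H3C12 (ENSG00000197153, chromosome 6, 27858093 to 27860884, minus strand, GRCh37) encodes a canonical H3. It had the highest count of the 35 matched genes and ranked 343 of 7959 tested genes by average level. Control libraries 1 to 3 held 405, 415 and 363 raw counts and SOX9 sgRNA libraries 288, 292 and 415. With library totals corrected by TMM factors (TMM-scaled CPM, meant by CPM from here on), the values were 541, 527 and 522 against 347, 379 and 404. All 3 SOX9 sgRNA libraries lay below all 3 control libraries. The difference was -0.49 on the log2 scale (SE 0.10), with an edgeR adjusted p of 0.000295, and the call held in all 12 alternative fits.

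The count of H3C12 did not stand apart from that of a neighbour. In the deposited annotation H3C12 has an exon block of 496 bp and, further upstream, one of 346 bp from 27860539 to 27860884. The upstream block lies wholly inside ENSG00000233224 (27860477 to 27860963, minus strand), an identifier without a symbol in the tables used here. That identifier held 403, 411 and 363 counts in control libraries 1 to 3 and 286, 291 and 408 in SOX9 sgRNA libraries 1 to 3. The counts of H3C12 and of this identifier differed by at most 7 in any library. The header options let a fragment count for every gene it overlaps, so a fragment in the shared block counts for both. For ENSG00000233224 the log2 difference was -0.50 (SE 0.10), with an edgeR adjusted p of 0.000241. In the GENCODE 29 transcripts of H3C12, 297 of 726 50-base words (40.9%) also occurred in transcripts of HIST1H2AM. This is an H2A gene whose name matched no identifier. A stretch of 346 bases, the length of the upstream block, holds that many words. Whether ENSG00000233224 is HIST1H2AM was not tested. The tables do not give the fragments in each exon block, so how much of the fall belongs to the 496 bp block could not be measured.

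The same held for H3C4 and H2AC7, which overlap over 385 bp on the minus strand of chromosome 6. H3C4 encodes an H3 and H2AC7 an H2A. H3C4 held 30, 25 and 40 counts in control libraries and 32, 20 and 30 with the SOX9 sgRNA. H2AC7 held 29, 25 and 36 against 30, 19 and 30. Their counts differed by at most 4 in any library, so the same fragments could stand behind both names. Their log2 fold changes were -0.41 (SE 0.32) and -0.40 (SE 0.32), neither past the threshold. Without H3C4 and H3C12, 2 of the tested histone genes were called lower.

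**Figure D3:**
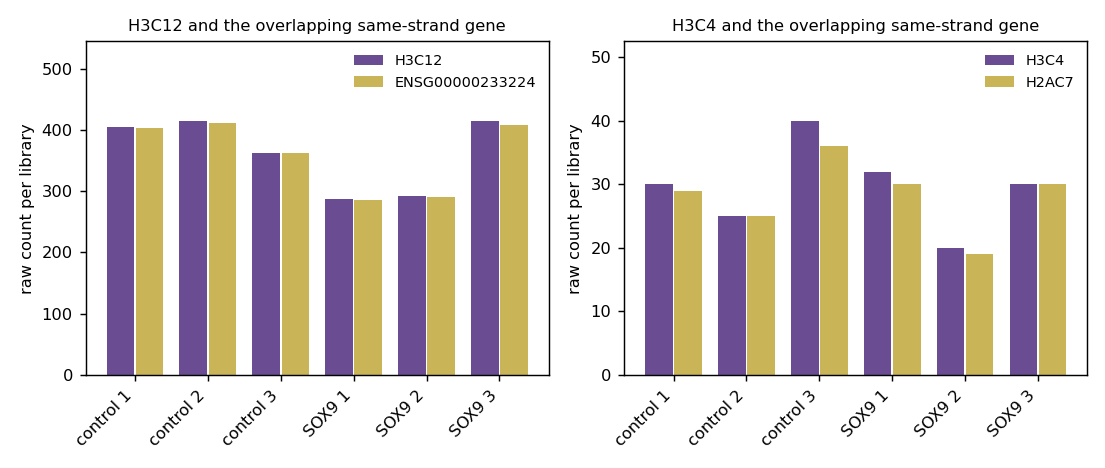
Raw counts per library (y axis) of H3C12 beside ENSG00000233224 (left) and of H3C4 beside H2AC7 (right), genes whose exons overlap on the same strand. In each of the 6 libraries the paired bars are nearly equal, differing by at most 7 on the left and 4 on the right.

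H2AC11 (ENSG00000196787, chromosome 6, 27100832 to 27103070, plus strand) and H2BC11 (ENSG00000124635, 27093676 to 27100541, minus strand) were the other called genes. They are a head-to-head pair, with start sites 291 bp apart in the deposited coordinates. H2AC11 encodes an H2A and had 220, 217 and 177 CPM in control libraries 1 to 3. It had 139, 116 and 158 CPM in SOX9 sgRNA libraries 1 to 3, all below the lowest control library. The log2 difference was -0.57 (SE 0.15), and its edgeR adjusted p was 0.00838. H2BC11 encodes an H2B and had 262, 237 and 319 CPM against 211, 160 and 218. Its groups did not overlap either, with a log2 difference of -0.47 (SE 0.14) and an edgeR adjusted p of 0.0183. In plain CPM the groups of both genes overlapped: the lowest control and highest SOX9 sgRNA values were 158 and 159 for H2AC11, and 212 and 220 for H2BC11. Neither gene has an exon overlapping another gene of the tables.

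Single libraries and the scaling decided some of these calls. H2AC11 lost its call without control library 1 (-0.53, adjusted p = 0.0592) and without SOX9 sgRNA library 2 (-0.46, adjusted p = 0.0709) by edgeR. H2BC11 lost it without control library 3 (-0.36, adjusted p = 0.172) and without SOX9 sgRNA library 2 (-0.34, adjusted p = 0.162), and also by DESeq2. With library totals the log2 fold changes were -0.39 for H2AC11 and -0.29 for H2BC11, both without a call, and -0.31 for H3C12 (edgeR adjusted p = 0.0367).

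H2BC12, an H2B gene further along the same cluster, had a level near that of H2BC11. Control libraries gave 220, 237 and 236 CPM, and SOX9 sgRNA libraries gave 235, 153 and 154. SOX9 sgRNA library 1 lay among the controls and the other two below them. The log2 fold change of -0.38 (SE 0.15) had an edgeR adjusted p of 0.123, and without SOX9 sgRNA library 1 it was -0.59 (adjusted p = 0.0105). The identifier ENSG00000184825, which has no symbol here, starts head to head with H2BC12 at 242 bp and also gave -0.38 (SE 0.19, edgeR adjusted p = 0.179).

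Since H2BC11 and H2AC11 share the stretch between their starts, that stretch is shown with the corresponding window of H2BC12. Each window runs from 250 bases before to 50 after a RefSeq start, 5′ to 3′ on the strand of the H2B gene, on GRCh38.p14 and therefore not on the build of the counts. Capitals mark the CCAAT box (CCAAT), the letters of the TATA box (TATAAA) and the octamer (spelled ATGCAAAT) on either strand, and overlapping matches were counted.
H2BC11 (chr6:27132746-27133045, minus strand): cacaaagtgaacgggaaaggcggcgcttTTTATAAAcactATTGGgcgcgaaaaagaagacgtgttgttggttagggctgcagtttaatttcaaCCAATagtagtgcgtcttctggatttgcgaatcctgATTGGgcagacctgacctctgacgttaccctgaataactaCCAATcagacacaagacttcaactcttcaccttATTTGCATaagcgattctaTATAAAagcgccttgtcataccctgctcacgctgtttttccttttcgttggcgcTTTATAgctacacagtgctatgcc
H2BC12 (chr6:27146806-27147105, minus strand): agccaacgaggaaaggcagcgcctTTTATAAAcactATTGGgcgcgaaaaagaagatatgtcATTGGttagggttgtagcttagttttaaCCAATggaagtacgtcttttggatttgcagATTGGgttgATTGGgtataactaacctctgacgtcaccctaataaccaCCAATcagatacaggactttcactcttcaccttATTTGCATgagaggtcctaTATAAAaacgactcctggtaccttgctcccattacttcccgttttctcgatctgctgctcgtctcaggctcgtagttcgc
The H2AC11 window holds 253 of the same bases on the plus strand. H2BC11 had 4 CCAAT matches and H2BC12 had 6, and each had 1 octamer. The windows of H2BC11 and H2BC12 aligned over 240 bases with 82% identity, gaps included.

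These letters were more frequent in the family than over all RefSeq windows. Windows were found for 32 of the 35 genes. CCAAT, the letters bound by NF-Y, occurred in 90.6% of them against 34.6% of all 35116 windows, and in 0 of 3 H4 windows. TATAAA occurred in 71.9% against 11.5%. The octamer, the letters bound by POU2F1, occurred in 6 of 8 H2A windows and 6 of 10 H2B windows against 1.77% of all windows, and in 0 of the H1, H3 and H4 windows. These counts take 1 window per gene, the one with the lowest coordinate. H2BC5, H2BC12 and H3C4 have another, and that of H3C4 holds 1 octamer. Over all 35 windows of these genes the shares were 91.4% for CCAAT, 71.4% for TATAAA and 40.0% for the octamer. Windows of head-to-head pairs overlap on the genome, so 1 match can be counted for both genes of a pair. The other H3C4 window has the same coordinates as that of H2AC7. A match describes the sequence and not binding.

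The 35 matched genes contain 6 head-to-head pairs with starts at most 1000 bp apart, each of an H2A with an H2B gene. H2AC7, H3C4, H2BC12, H2BC15 and H3C12 also start head to head with identifiers without a symbol, which are not counted here. Distances in the 6 pairs ran from 190 bp for H2BC13 and H2AC13 to 347 bp for H2AC1 and H2BC1. H2AC1 and H2BC1, known as testis histone genes, had no count in any library. A count of 0 over the 5125924 counts of all libraries allows a level of up to 0.585 plain CPM, for counting error only. In the other 5 pairs the larger total was between 1.33 and 7.81 times the smaller.

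Only for H2BC11 and H2AC11 did the calls fall on both sides of a pair, and whether the pairs differ from each other was not tested. H2BC4 and H2AC6, an H2B and an H2A gene 219 bp apart, held 151 and 296 counts in all and gave 0.05 (SE 0.33) and 0.03 (SE 0.25). H2BC21 and H2AC20, 293 bp apart on chromosome 1, gave 0.07 (SE 0.31) and -0.30 (SE 0.36). H2BC13 and H2AC13 gave -0.62 (SE 0.58) and -0.05 (SE 0.32). H2AC25 held 164 counts and gave 0.12 (SE 0.34), while H2BC26, which starts 248 bp away, held 21 and was not tested. None of these 7 tested genes passed the threshold. Their SEs ran from 0.25 to 0.58, against 0.14 and 0.15 for the called pair, so smaller changes were not detectable in them at this depth.

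**Figure D4:**
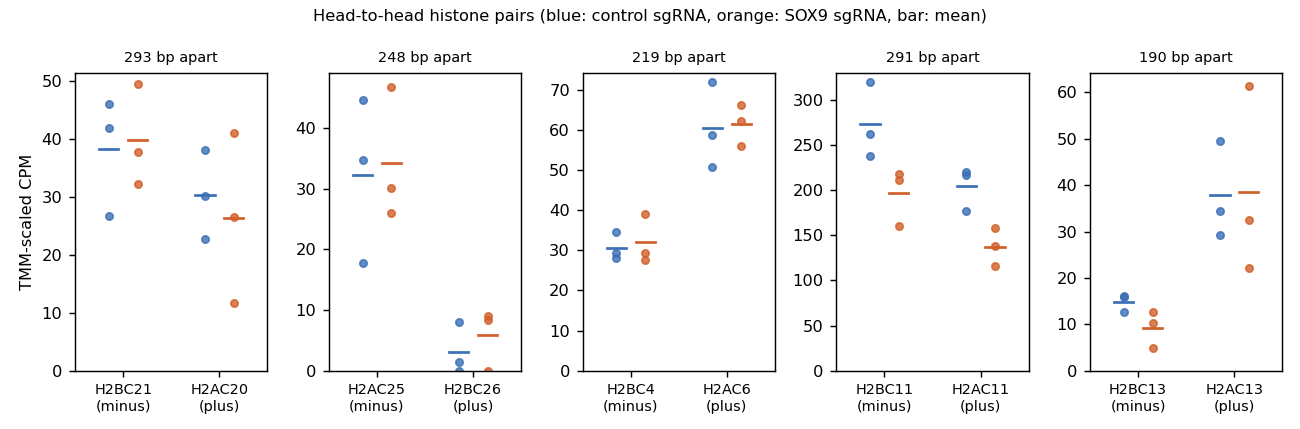
TMM-scaled CPM (y axis, a scale of its own in each panel) of the minus-strand and plus-strand gene of the 5 head-to-head pairs with counts, 1 point per library, with the distance between starts above each panel. Control (blue) and SOX9 sgRNA (orange) points are apart for both genes of H2BC11 and H2AC11, nearly touch for H2BC13 (12.7 in both groups) and overlap for the rest.

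The other tested H2A and H2B genes had levels between those of H2BC13 and H2AC6, and none passed the threshold. H2AC21, an H2A gene on chromosome 1, had 46.7, 45.7 and 37.4 CPM in control libraries and 50.6, 54.6 and 49.6 with the SOX9 sgRNA. It was the only tested histone gene with all SOX9 sgRNA libraries above all controls, in TMM-scaled and in plain CPM. Its log2 difference was 0.25 (SE 0.28, adjusted p by edgeR 0.682). Its exon overlaps BOLA1 over 27 bp on the other strand. BOLA1 held 721 to 1163 raw counts per library, against 26 to 51 for H2AC21. H2BC18 and H2BC13, both H2B genes, had all SOX9 sgRNA libraries below all controls without passing the threshold, and in plain CPM their groups overlapped. For H2BC13 the nearest libraries had 10 and 13 raw counts, which both came to 12.7 CPM. H2BC18 gave -0.41 (SE 0.34). Its exons overlap ENSG00000242663, which had 0 to 6 counts per library, over 414 bp on the same strand, and FCGR1A over 177 bp on the other. In all, groups did not overlap for 5 of 20 tested histone genes in the lower direction, against 12.8% of all tested genes, and for 1 in the higher direction, against 11.7%. H2BC5 gave -0.11 (SE 0.30) and H2BC15 -0.31 (SE 0.34).

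**Figure D5:**
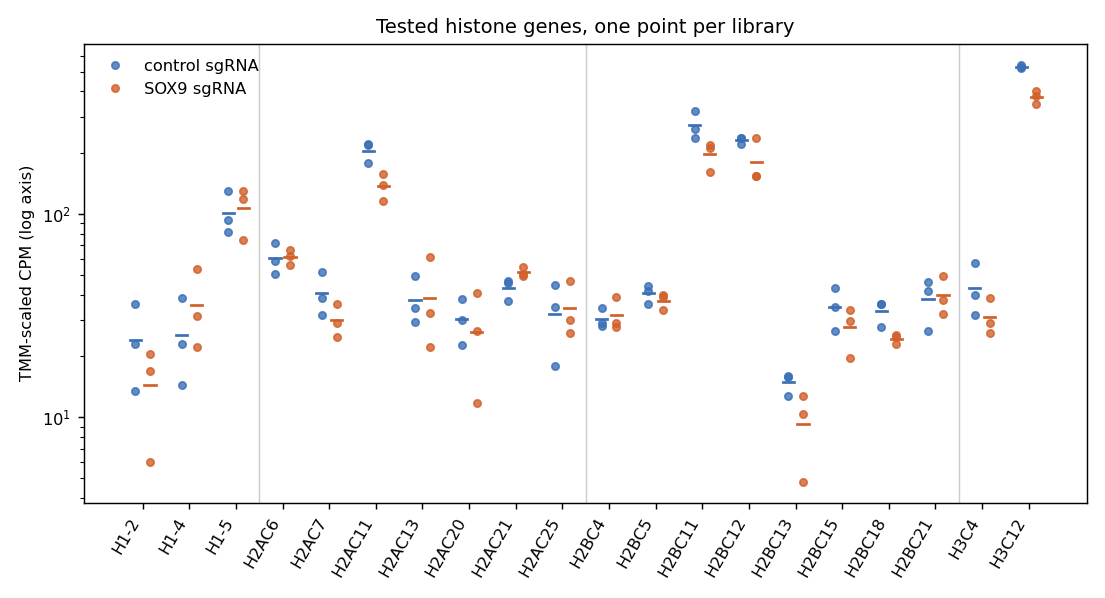
TMM-scaled CPM (y axis, log scale) of the 20 tested histone genes (x axis, grouped by histone type), 1 point per library and a bar at each group's mean, for control sgRNA (blue) and SOX9 sgRNA (orange). H3C12, H2BC11 and H2AC11 show separate groups at the top of the range. The groups of H2BC12, also at the top, overlap, as do those of most of the lower genes.

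The linker histone genes showed no call. H1-5, the most abundant of them, had 129, 81.3 and 93.5 CPM in control libraries and 130, 118 and 74 with the SOX9 sgRNA. Its groups overlapped widely (0.07 on the log2 scale, SE 0.20, adjusted p by edgeR 0.905). H1-4 gave 0.47 (SE 0.36) and H1-2 gave -0.68 (SE 0.45), with overlapping groups in each. H1-4 had 53.5 CPM in SOX9 sgRNA library 3 and at most 38.7 in any other library. H1-1 and H1-3 held 16 and 18 counts over all 6 libraries, and the testis linker gene H1-6 held 1.

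The 4 matched H4 genes and most of the 6 matched H3 genes had too few counts for a test. Genes of these types without a match were not examined. H4C8 held 34 counts, H4C3 29, H4C16 13 and H4C11 5. Of the 13 counts of H4C16, 11 came from control library 3. The 4 H3 genes other than H3C4 and H3C12 held 49 counts in all. Among the 15 untested genes, 8 held at least 10 counts over the 6 libraries, 5 held between 1 and 9, and 2 held none.

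Levels between the 35 matched genes were compared as CPM per kb of annotated exon. H3C12 had 538 CPM per kb, with the shared block included. Among H2B genes H2BC12 had 251 and H2BC11 213. H1-5 led the H1 genes at 132 and H2AC21 the H2A genes at 106. H2AC11, whose annotated exon runs over 2239 bp, had 76.4. The highest H4 gene, H4C3, had 13.5.

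Near-identical copies limit some values, since a read that matches several genes may not be counted. H3C14 and H3C15 were identical to each other in GENCODE 29 over 100% of their 50-base words, and HIST2H2AA3 to HIST2H2AA4. These 3 genes held 4, 1 and 2 counts. In H4C11, 81.2% of words also occurred in HIST1H4K, and in H3C13 80.4% occurred in other genes. Sharing did not always go with low counts: 74.1% of H2BC12 words occurred in other genes, most often in H2BFS, and H2BC12 held 987 counts. H2AC11 and H2BC11 had only 4.4% and 4.6% of shared words.

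The stem-loop near the 3′ end, where SLBP binds, was found in GENCODE 29 transcripts of 18 of the 35 genes, against 0.0878% of 83129 protein-coding transcripts. In the rest no match says only that these letters are not in those transcripts. The forms found are shown with the 16 bases of the stem-loop in capitals.
H2BC21: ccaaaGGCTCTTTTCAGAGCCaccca
H2BC4: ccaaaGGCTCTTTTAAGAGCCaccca
H4C8: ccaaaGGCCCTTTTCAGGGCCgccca
H2AC11: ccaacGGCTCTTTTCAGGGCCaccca
The form of H2BC21 occurred in 11 genes, that of H2BC4 in 3 (C10A, counted from 1 at the first capital) and that of H4C8 in 3 (T4C and A13G). H2AC11 was the only one with A13G alone. The annotated transcript of H2AC11 runs 1761 bases past its stem-loop and that of H2AC6 1128 bases, while that of H2BC13 ends after 40 bases. The counts do not show on which side of the stem-loop a fragment lay.

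Genes that act with the replication-dependent histones did not pass the threshold. In the list for histone mRNA processing and transcription, 4 of 15 genes were tested and 0 were called, with 0 at an unadjusted p below 0.05 (20.5% of all tested genes, also for the lists that follow) and a median of 0.30. SLBP held 0 to 5 counts per library and NPAT, the coactivator of histone transcription, 1 to 5 (both singled out after their values were seen). Among polyadenylated variants, which are made outside S phase too, 8 of 12 were tested and 0 called by edgeR or DESeq2, with 3 at an unadjusted p below 0.05 and a median of -0.13. Of those 3, 2 were lower and 1 higher with the SOX9 sgRNA. H3-3B, a gene of the variant H3.3 and 1 of the lower ones, had 242 ± 27.4 against 200 ± 11.1 CPM (SD, n = 3 each). The higher one, MACROH2A1, had 13.6 ± 3.21 against 28.3 ± 7.03 CPM (SD, n = 3 each). Both were named after their values were seen. Of 11 tested histone chaperone genes 0 were called by either tool, 1 had an unadjusted p below 0.05, and the median was 0.23.

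In the S phase list, 12 of 20 genes were tested and 0 called by edgeR or DESeq2, with 3 at an unadjusted p below 0.05 (20.5% of all tested genes) and a median of -0.26. Those 3, named after their values were seen, differed in direction. PCNA, the sliding clamp of DNA polymerase, gave -0.94 (SE 0.42, edgeR adjusted p = 0.114), while the helicase genes MCM2 and MCM4 gave 0.75 (SE 0.35) and 0.71 (SE 0.37). CCNA2, which encodes cyclin A2 and was also named afterwards, had 189 ± 30.5 against 158 ± 22.3 CPM (SD, n = 3 each).

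Identifiers without a symbol in the histone region of chromosome 6 were counted as a description, chosen by position after the data were seen. There were 34 with 1 exon block of 340 to 1500 bp, holding 6382 counts. Of these 16 were tested, and 1 was called lower (ENSG00000233224) and 0 higher. Over all tested genes 6.02% were called lower and 2.99% higher. The median log2 fold change of the 16 was -0.31 with TMM factors, beside 0.02 over all tested genes. ENSG00000233224 held 286 to 411 counts per library, within 7 of H3C12, so its call may rest on the same fragments.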

How the data were processed

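Raw counts per gene were deposited by the authors, 1 table per library for 3 control sgRNA and 3 SOX9 sgRNA libraries. Per the submitters' processing notes, STAR 2.7.10a and Subread 1.6.2 were used with GRCh37 (hg19). featureCounts 1.6.2 then counted fragments over exons, per the file headers, of Ensembl release 75 genes with strand setting 1, allowing a fragment to count for every overlapping gene. The handling of multi-mapped reads is not stated in these sources.

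Counts were filtered with filterByExpr, scaled by TMM factors and tested with edgeR 4.0.16 (robust quasi-likelihood, R 4.3.3), with Benjamini-Hochberg adjustment over 7959 genes. Log2 fold changes are differences of mean log2 CPM with a prior count of 2. Tested on simulated data with 7402 genes, the procedure found 28% of 1.5-fold and 84% of 4-fold changes. Alternatives were library totals, DESeq2 1.42.0 (size factors and Wald test), other filters, a replicate block and leaving out each library. Exon overlaps came from bedtools 2.31.1. Members and lists were chosen with earlier results of these data known. Named genes were all tested members, the leading member of each type per kb, and list genes past the threshold. Others are named by their counts or position. Promoter windows are RefSeq's, transcripts GENCODE's. The summed level of the immune marker list is not reported here.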

Additional observations from a re-analysis of the deposited data

How the results depend on the processing

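Over all genes, library totals gave 249 lower and 625 higher, against 479 and 238 with TMM factors. The DESeq2 Wald test gave 130 higher and no filter 151. Leaving out a library gave 364 to 430 lower and 161 to 207 higher genes. Histone genes called lower numbered 1 with library totals and 1 to 4 when a library was left out, the lowest without SOX9 sgRNA library 2. Their median was -0.14 with library totals or no filter, -0.17 with the stricter filter and -0.34 to -0.19 without a library. The summed share differed by -176 plain CPM, by -383 with TMM-scaled counts and by -214 to -103 without a library. Uncalled genes changed sign in places: H2AC13 gave 0.12 and H2BC5 0.06 with library totals, and H2AC13 gave 0.05 by DESeq2. Without a library, ranges crossing 0 were -0.09 to 0.31 for H1-5, -0.43 to 0.26 for H2AC13, -0.67 to 0.13 for H2AC20, -0.24 to 0.37 for H2AC25, -0.09 to 0.15 for H2AC6, -0.17 to 0.20 for H2BC21 and -0.10 to 0.13 for H2BC4. The cause was not tested. The replicate block gave 3 histone genes lower, and 399 lower and 175 higher genes in all. In deviations from the group means, same-numbered libraries correlated at 0.00591, 0.0172 and -0.0295. Differently numbered ones correlated at -0.0476 to 0.0418. With 3 libraries per group at this depth, these values cannot decide whether the numbers pair libraries.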
